A study of Homo sapiens with 32 samples.

Results

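Binding of the transcription factor HNF4α was examined at 10 tight junction genes: the claudins CLDN2, CLDN3, CLDN4, CLDN7, CLDN15 and CLDN23, the scaffold proteins TJP1 and TJP3, occludin (OCLN) and cingulin (CGN). In each of 18 peak lists, a peak was assigned to a gene when its summit, the position of highest signal, lay inside the gene in GRCh38 or no more than 50 kb from either end. This gave 621 of 337294 peaks, which merged into 105 of 78729 regions over the 18 lists. The 10 genes are a fixed set out of 20033 protein-coding genes, chosen with earlier results of these data known. The rule that assigned peaks to them used gene position only.

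The lists come from chromatin immunoprecipitation sequencing (ChIP-seq) in 3 human pancreatic ductal adenocarcinoma cell lines. HNF4α is a nuclear receptor with a pair of promoters, P1 and P2, whose isoforms differ at the N-terminus. Panc10.05 and BxPC3 cells carried a doxycycline-inducible P1-a2 or P2-a8 isoform and were mapped with a pan-HNF4α antibody. BxPC3 received 500 ng/mL doxycycline for both isoforms, and Panc10.05 received 25 ng/mL for P1-a2 and 12.5 ng/mL for P2-a8, so that dose and isoform differ together in Panc10.05. AsPC1 cells (labelled ASPC1) carried CRISPR interference (CRISPRi) with a control guide (sgNC), a guide to P1 (sgP1) or a guide to P2 (sgP2), and no doxycycline is listed for them. Each guide has pan-HNF4α lists. The sgNC and sgP2 cells were further mapped with a P1-isoform antibody. Titles name 1 guide per promoter, so guide and promoter cannot be told apart. The titles of the BxPC3 P2-a8 libraries pair a8 with P1, and their genotype label, P2-a8, was used. Each of the 9 groups had 2 lists, and the labels do not state separate cultures. A p-value therefore measures only the spread between these libraries.

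Tight junctions seal the space between neighbouring epithelial cells. Claudins are membrane proteins that set which ions and solutes pass: CLDN2 forms a cation and water channel, and CLDN15 a cation channel. CLDN3, CLDN4 and CLDN7 are common in epithelia, the pancreatic duct among them. Occludin is a membrane protein of the same strands. TJP1 and TJP3, also known as ZO-1 and ZO-3, hold claudins and occludin from the cytoplasmic side and tie them to actin, and cingulin binds to these scaffolds. HNF4α directs differentiation of gut, liver and pancreatic epithelium. It binds DNA as a homodimer at repeats of a short half-site, and is known for controlling genes of epithelial junctions in the gut and liver.

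The lists differed in length and cannot be read as amounts of binding. The 14 pan-HNF4α lists held 11686 to 41808 peaks, of which 18 to 63 lay at the 10 genes. The sgP2 lists of the P1-isoform antibody held 5200 and 3916 peaks, with 10 and 8 at the genes, and the sgNC lists held 697 and 260, with 2 and 2. Peaks at the 10 genes made up 1.22 to 1.65 per 1000 peaks in the 8 lists of the induced lines, and 2.35 to 3.25 per 1000 in the 6 pan-HNF4α lists of AsPC1. No peak of the induced lines had a −log10 q below 8, whereas AsPC1 lists reached lower, so these shares rest on different thresholds. Sample titles begin with a different number for each cell line, and the labels do not say what it stands for. Read depth is unknown. Peak lists hold no expression values, so the labelled cell types could not be checked against marker genes.

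Upstream sequences are given for CLDN4, CLDN3, TJP3 and CLDN15, for the reason named with each. They are the 250 bases before a RefSeq transcript start (GRCh38.p14), 5′ to 3′ on the gene's strand, with capitals for AGGTCA, an HNF4-type half-site, or AAAGTCCA, the core of the longer HNF4 motif, on either strand. CLDN4 (chr7:73830746-73830995, plus strand) is shown because the window lay under a peak in all 14 pan-HNF4α lists and in 2 lists of the P1-isoform antibody. In 1 list a summit fell inside it. CLDN3 (chr7:73770271-73770520, minus strand) held a summit in the 4 Panc10.05 lists and in no other. TJP3 (chr19:3721487-3721736, plus strand, second listed start) lay under a peak in 11 pan-HNF4α lists, with a summit inside it in 1 list. The main summits there lay outside the printed bases, 913 to 1142 bp before that start. CLDN15 (chr7:101237803-101238052, minus strand) lay under no peak and is shown for its motif.
CLDN4: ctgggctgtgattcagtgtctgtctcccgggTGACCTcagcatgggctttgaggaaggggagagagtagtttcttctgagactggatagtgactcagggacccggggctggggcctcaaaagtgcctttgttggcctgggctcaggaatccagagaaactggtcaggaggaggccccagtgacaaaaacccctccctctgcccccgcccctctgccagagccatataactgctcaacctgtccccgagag
CLDN3: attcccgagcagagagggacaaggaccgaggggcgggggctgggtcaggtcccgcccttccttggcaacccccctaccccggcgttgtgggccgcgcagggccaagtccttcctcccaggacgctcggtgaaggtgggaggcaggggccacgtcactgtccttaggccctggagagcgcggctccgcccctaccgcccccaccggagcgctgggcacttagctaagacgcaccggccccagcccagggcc
TJP3: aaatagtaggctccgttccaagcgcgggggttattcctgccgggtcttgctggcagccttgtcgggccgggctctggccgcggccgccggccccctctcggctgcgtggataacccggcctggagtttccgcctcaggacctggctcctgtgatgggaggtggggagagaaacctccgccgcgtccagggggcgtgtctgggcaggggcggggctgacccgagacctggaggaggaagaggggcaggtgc
CLDN15: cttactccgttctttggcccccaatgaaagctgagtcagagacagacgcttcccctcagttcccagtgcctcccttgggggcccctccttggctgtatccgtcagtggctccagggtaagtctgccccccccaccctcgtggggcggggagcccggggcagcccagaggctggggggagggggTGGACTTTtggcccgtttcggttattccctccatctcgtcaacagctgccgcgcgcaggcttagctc

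Listed RefSeq starts were used for 9 of the 10 genes, 16 starts in all. CLDN23 had no listed start and is left out of every count at starts. A set of 4 motifs was sought on both strands of the window from 250 bases before to 50 after each start. CAAAGTCCA was in 0.384% of 35116 such windows and CAAAGGTCA in 0.407%, and neither was in a window of the 9 genes. AAAGTCCA, whose letters lie within the first of these, was in 1.14% of all windows and in 1 of the 16, that of CLDN15, where it lies 67 bases upstream on the opposite strand. AGGTCA, which lies within the second, was in 13.8% of all windows and in 8 of the 16, of CGN, CLDN15, CLDN2, CLDN4, CLDN7 and TJP1. In CLDN4 it lies 219 bases upstream. CLDN15 therefore had the longest motif match among the 9 genes and no peak over its start window. The windows of CLDN3 and TJP3 printed above held none of the 4 motifs.

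Peaks within 50 kb were common at the 10 genes and also at genes in general. Because the 10 genes were chosen with earlier results of these data known, their gap to all genes was not tested. All 10 genes had one in both lists of Panc10.05 P1-a2, Panc10.05 P2-a8, BxPC3 P1-a2, sgNC and sgP2, against 74.5%, 79.5%, 76.6%, 58.5% and 52% of all protein-coding genes. In sgP1 it was 9 of 10, without CLDN2, against 50.6%. In BxPC3 P2-a8 it was 8 of 10, without CLDN2 and CLDN23, against 45.4%. With the P1-isoform antibody, sgP2 had 6 of 10 against 23.7%, the missing genes being CLDN2, CLDN3, CLDN23 and TJP1. For sgNC only CGN, 1 of 10, had a peak in both lists, against 2.31%. Of these 10, CLDN23 had no other protein-coding gene in its window and CLDN7 had 11, so a peak within 50 kb may belong to a neighbour: a member was the nearest gene for 50 of the 105 regions.

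**Figure D1:**
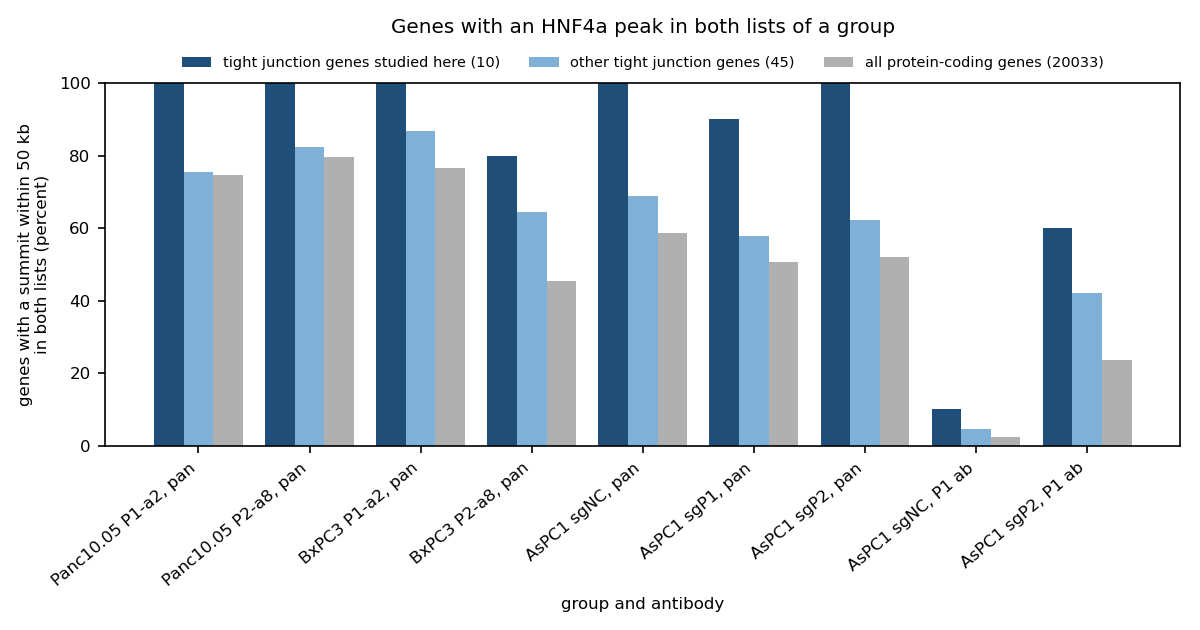
Bars give the percent of genes with a peak summit within 50 kb in both lists of a group, for the 10 tight junction genes, 45 other tight junction genes and all 20033 protein-coding genes; x axis, the 9 groups by antibody (pan, pan-HNF4α; P1 ab, P1-isoform antibody). The dark bar is the tallest in each group, and in 5 of the 9 groups it stands for 10 of 10 genes. Both tight junction sets were chosen with earlier results of these data known.

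Other genes of the junction lay between these values. Of 45 other tight junction genes, 34 and 37 had a peak in both lists of Panc10.05 P1-a2 and P2-a8, 39 and 29 in BxPC3 P1-a2 and P2-a8, and 31, 26 and 28 in sgNC, sgP1 and sgP2. The P1-isoform antibody gave 2 of 45 in sgNC and 19 of 45 in sgP2. Of the 45, 20 had a peak in all 14 pan-HNF4α lists, among them F11R (the adhesion protein JAM-A) and CLDN5. The share of all protein-coding genes with a peak in all 14 is not available, so this count has no background. AMOT, which binds junctional polarity proteins, CLDN8 and JAM3 had a peak in 0 of 14.

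**Figure D2:**
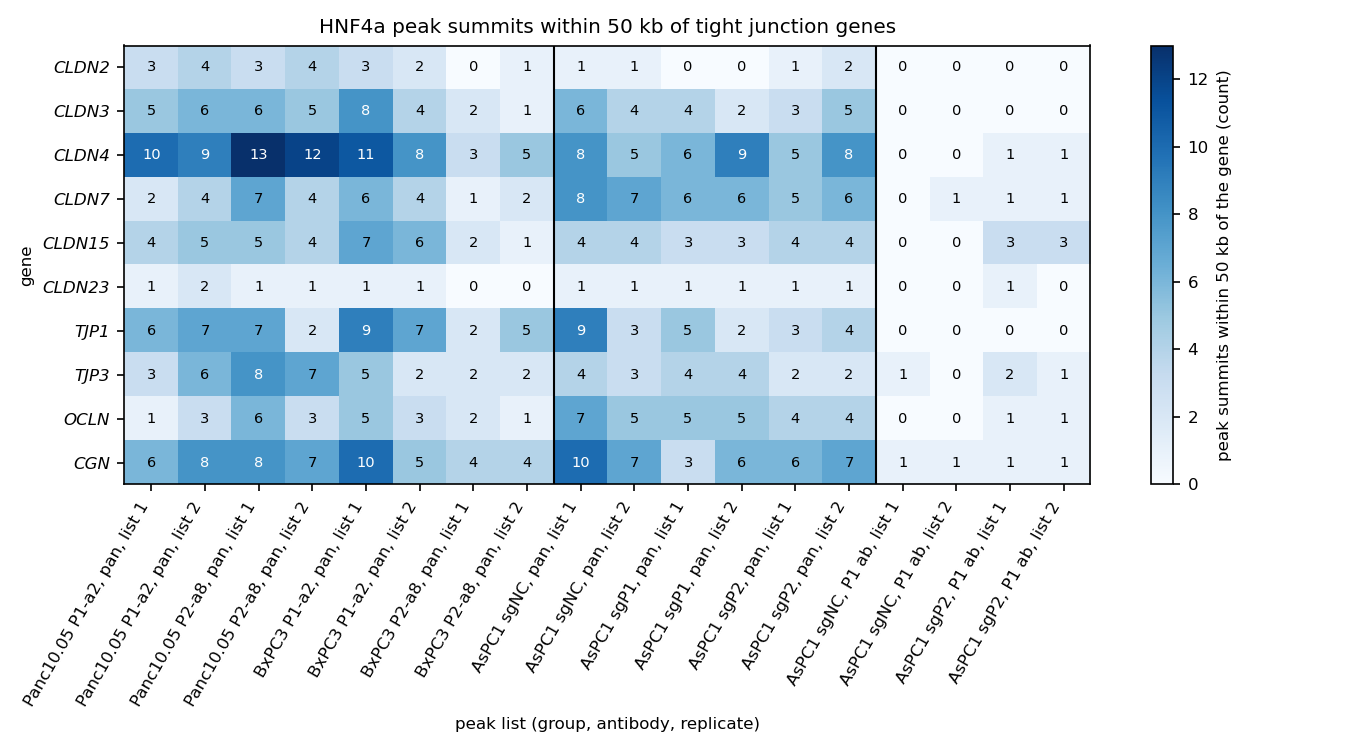
Number of peak summits within 50 kb of each of the 10 genes (rows) in each of the 18 lists (columns; vertical lines separate the induced lines, AsPC1 with the pan-HNF4α antibody and AsPC1 with the P1-isoform antibody). Counts run up to 13, at CLDN4 in the first Panc10.05 P2-a8 list, and CGN is the only gene with a peak in all 18 lists.

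Peaks at a transcript start were fewer. Within 1 kb of a listed start, both lists held a summit for 4 of 9 genes in Panc10.05 P1-a2 (CLDN3, CLDN4, TJP1, TJP3; 11.9% of 15842 genes), 3 in Panc10.05 P2-a8 (CLDN3, CLDN4, CLDN7; 16.6%), 4 in BxPC3 P1-a2 (CLDN4, CLDN7, TJP1, TJP3; 8.19%) and 2 in BxPC3 P2-a8 (CLDN4, TJP3; 2.5%). In AsPC1 it was 2 in sgNC (CLDN4, CLDN7; 12.6%) and 2 in sgP1 (CLDN4, TJP3; 9.28%). In sgP2 both lists held one for CLDN4, TJP1 and TJP3, and for 1598 of the 15842 genes. With the P1-isoform antibody it was 0 in sgNC (0.114%) and CLDN4 alone in sgP2 (2.24%). TJP3 narrowly missed the 1 kb limit in some groups, so these counts show no difference between isoforms or guides at TJP3. Its summits lay 1132 and 1126 bp before the second start in Panc10.05 P2-a8, at folds of 29.7 and 21.7. They lay 1011 bp before it in 1 pan-HNF4α list of sgNC, and 1002 bp in 1 P1-isoform list of sgP2. CLDN4 was the 1 gene of the 9 with a start summit in all 14 pan-HNF4α lists, as were 1.56% of all genes. TJP3 had one in 11 of the 14, TJP1 in 9, CLDN7 in 7, CLDN3 in 4 and OCLN in 1, and CLDN2, CLDN15 and CGN had none. CGN had 1 listed start, at 151511387, and its annotated span begins farther upstream, at 151510170. A CGN region in all 18 lists reached over that 5′ end. CLDN23, with no listed start, was not counted. The absence of CGN and CLDN23 here, and CLDN4 standing alone, therefore rest on which starts were listed.

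**Figure D3:**
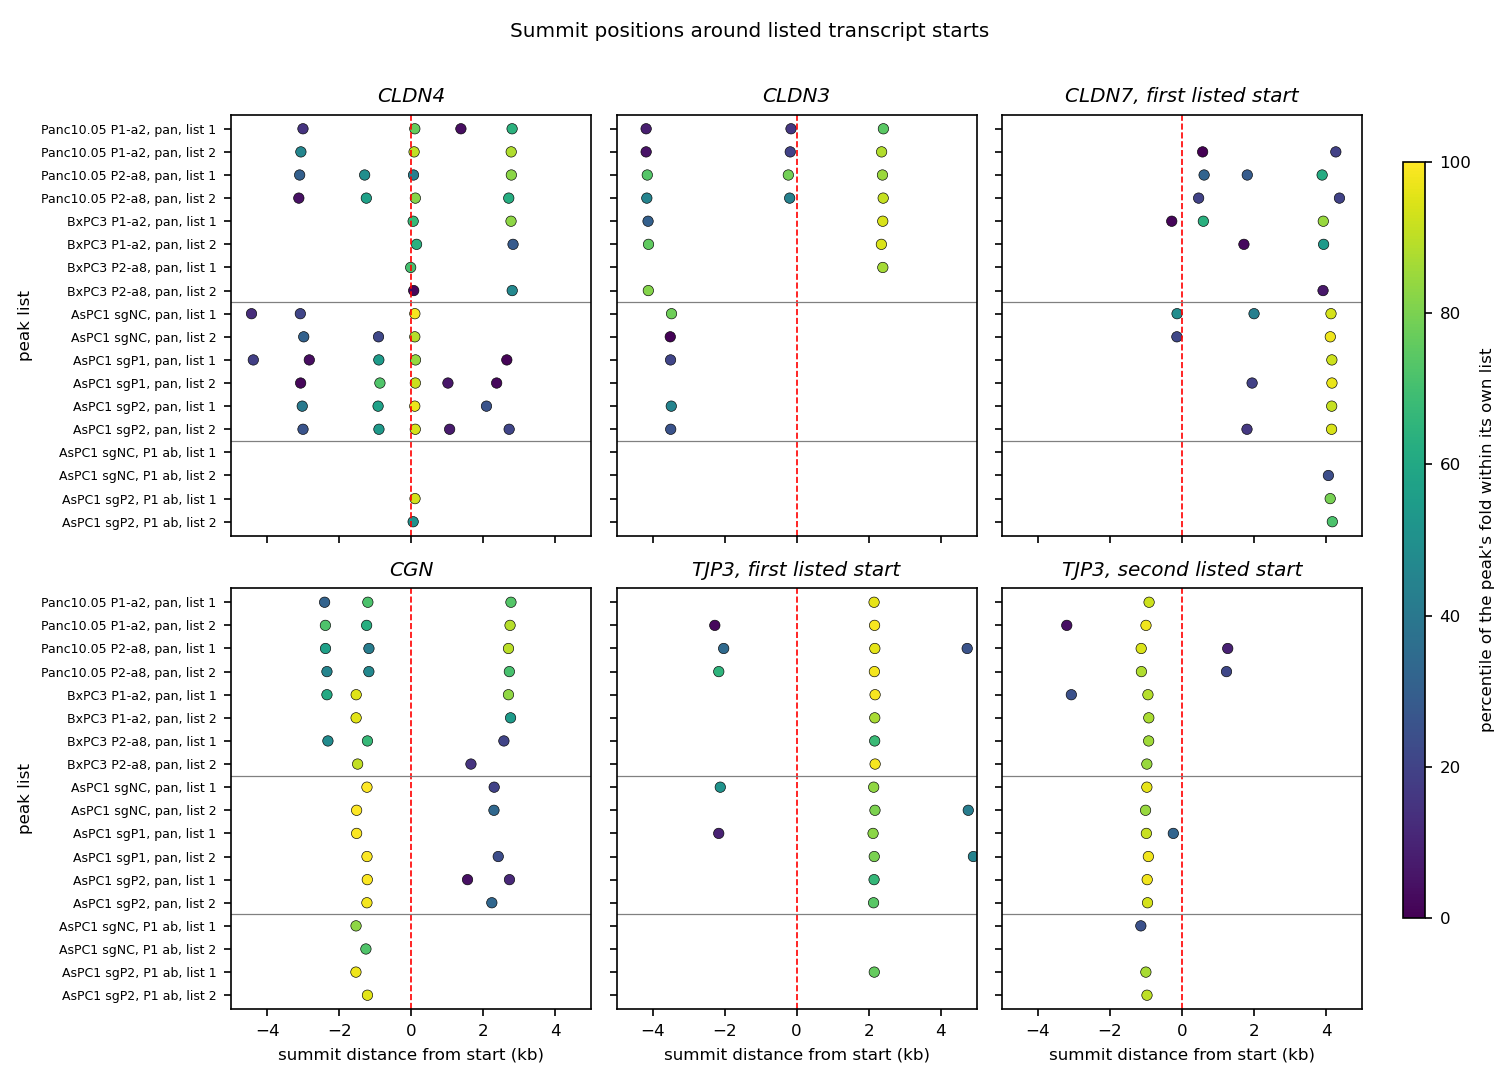
Each point is a peak summit within 5 kb of a listed transcript start of CLDN4, CLDN3, CLDN7, CGN or TJP3 (x axis, distance in kb, positive in the direction of transcription; dashed line, the start; y axis, the 18 lists); colour is the percentile of the peak's fold enrichment within its own list. CLDN4 has a column of points at the start in 16 lists, CGN a double column 1174 to 1535 bp upstream in all 18, and CLDN3 points at its start in the 4 Panc10.05 lists.

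CLDN4, a sealing claudin of tight epithelia, had its summit from 15 bp before to 149 bp after the start in 16 lists, within the wide region chr7:73829369-73834117. The authors' fold enrichment was 20.9 and 36.4 in Panc10.05 P1-a2, 11.3 and 18.5 in Panc10.05 P2-a8, 14.2 and 11.7 in BxPC3 P1-a2, and 12.2 and 4.67 in BxPC3 P2-a8. It was 39.3 and 15.4 in sgNC, 13.6 and 17.9 in sgP1, and 27.0 and 21.5 in sgP2. Within their own lists the 6 AsPC1 peaks ranked between the 84.2 and 98.6 percentiles, where 100 is the strongest peak, and the 8 peaks of the induced lines between 1.65 and 90.6. The P1-isoform antibody gave 16.8 and 7.56 at this start in sgP2 and no peak in either sgNC list.

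Further CLDN4 summits lay around that start in some of the lists. A summit 869 to 920 bp upstream was in 5 of the 6 AsPC1 lists and in none of the 8 induced lists, with folds of 4.88 to 9.74. Both Panc10.05 P2-a8 lists, and no other list, had a summit farther out, 1246 and 1293 bp upstream, at folds of 12.5 and 12.2. Downstream of the start by 2655 to 2828 bp, 7 of 8 induced lists had a summit, with folds of 8.17 to 32.9, and 2 of 6 AsPC1 lists had one, at 3.22 and 4.65. These positions were picked after their values were seen, and overlapping peaks join them into a single region, so they carry no test.

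CLDN3, the neighbour of CLDN4 on chromosome 7, had another pattern. Its most widely held region, 35.2 kb downstream of its start and nearest to ABHD11, was in 13 of 14 pan-HNF4α lists. Near the gene itself, 1.12 kb beyond its end (chr7:73767542-73768218), folds were 19.9 and 33.6 in Panc10.05 P1-a2, 21.3 and 23.9 in Panc10.05 P2-a8, 25.9 and 21.6 in BxPC3 P1-a2 and 15.3 in 1 BxPC3 P2-a8 list. No AsPC1 list had a peak there. At its start (chr7:73770120-73770845) the Panc10.05 lists alone had summits, 155 to 229 bp upstream, with folds of 8.99, 9.89, 18.6 and 10.8. The induced lists and AsPC1 also differed in the region upstream of the gene: 7 of 8 induced lists had a summit 4112 to 4178 bp before the start, and 5 of 6 AsPC1 lists one 3473 to 3508 bp before it. No list held both.

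CLDN7 had its strongest AsPC1 peak just past its end, 0.829 kb beyond the span (chr17:7258523-7259652), where ELP5 is the nearest gene. The folds in AsPC1 were 23.3 and 26.5 in sgNC, 19.0 and 23.9 in sgP1, and 18.4 and 22.1 in sgP2, all 6 between the 91.4 and 97.4 percentiles of their lists. In the induced lines 6 of 8 lists had it, with folds of 5.56 to 19.3. The P1-isoform antibody gave 10.8 and 9.92 in sgP2 and 5.01 in 1 sgNC list. The CLDN7 region held by all 14 pan-HNF4α lists lay 41.9 kb downstream of the start, nearest to ACADVL. A region over the CLDN7 start (chr17:7262335-7263786) was in 6 of 14 lists, at folds that ranked no higher than the 63.5 percentile.

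Among the channel-forming claudins, CLDN2 and CLDN15 had no start peak. The CLDN2 region held most often lay 1.94 kb beyond the gene's end (chrX:106932284-106933448). Its folds were 21.1 and 19.7 in Panc10.05 P1-a2, 24.7 and 21.0 in Panc10.05 P2-a8, and 24.3 and 13.7 in BxPC3 P1-a2, with no peak in either BxPC3 P2-a8 list. In AsPC1 they were 4.2 and 7.73 in sgNC and 6.23 and 6.99 in sgP2, and neither sgP1 list had a peak. A CLDN2 region 1.59 kb before the first start was in the 4 Panc10.05 lists alone, at folds of 11.7 to 16.7.

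The CLDN15 region in all 14 pan-HNF4α lists lay 36.7 kb downstream of its start (chr7:101200541-101202428), nearest to MOGAT3, at folds of 6.72 to 26.0. It was also in both sgP2 lists of the P1-isoform antibody, at 13.1 and 8.19. Inside CLDN15, a region 2.17 kb downstream of the start (chr7:101235311-101235884) was in 6 of 6 AsPC1 lists, at folds of 6.5 to 7.48, and in 2 of 8 induced lists, at 11.1 and 11.3. CLDN23, a claudin known from intestinal epithelium, had a region at 1 end of its span in 12 of 14 pan-HNF4α lists. Its summits lay from 46 bp before to 34 bp after the end of the span with the lower coordinate. Folds there were 5.92 to 24.3, both BxPC3 P2-a8 lists lacked it, and 1 sgP2 list of the P1-isoform antibody had it, at 7.77.

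The scaffold gene TJP3 had a pair of regions in all 14 pan-HNF4α lists. The first, 2.16 kb downstream of the first start (chr19:3710107-3710946), had folds of 43.5 and 66.7 in Panc10.05 P1-a2, 32.8 and 36.9 in Panc10.05 P2-a8, 38.7 and 17.0 in BxPC3 P1-a2 and 11.8 and 19.5 in BxPC3 P2-a8. In AsPC1 they were 14.3 and 11.9 in sgNC, 12.9 and 11.5 in sgP1, and 9.13 and 10.5 in sgP2. The other (chr19:3720200-3721937) had summits 913 to 1142 bp before the second start. Its folds were 29.0 and 13.5 in sgNC, 18.2 and 26.7 in sgP1, 30.9 and 21.2 in sgP2, and 12.2 to 61.9 in the induced lines. It ranked at or above the 84.7 percentile in every pan-HNF4α list, and the P1-isoform antibody gave 13.1 and 14.8 there in sgP2 and 5.28 in 1 sgNC list.

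TJP1, the longest of the genes, had no region in all 14 lists. The one held most often lay inside the gene, 43.4 kb downstream of the first start (chr15:29924923-29926080). It was in 13 of 14 lists, at folds of 4.45 to 18.2. A region over the start of shorter TJP1 transcripts (chr15:29821937-29823450) was in 9 lists, and one 0.819 kb past the gene's end was in 7 of 8 induced lists and 1 of 6 AsPC1 lists. No TJP1 region had a peak with the P1-isoform antibody.

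CGN, which binds the scaffolds, had the highest-ranked peaks of the 10 genes in AsPC1. The region 5′ of the gene (chr1:151508771-151511370), which reaches over the first base of its span (151510170), was in all 18 lists. At the summits 1174 to 1535 bp upstream of the listed start, folds were 70.1 and 44.1 in sgNC, 37.6 and 41.2 in sgP1, and 41.5 and 34.0 in sgP2. These folds ranked between the 98.2 and 99.9 percentiles. In the induced lines they were 18.7 and 17.8 in Panc10.05 P1-a2, 11.2 and 11.1 in Panc10.05 P2-a8, 28.0 and 22.9 in BxPC3 P1-a2, and 11.7 and 13.9 in BxPC3 P2-a8, between the 42.0 and 95.4 percentiles. The P1-isoform antibody gave 10.3 and 8.07 in sgNC and 23.1 and 19.0 in sgP2. Summits fell in 2 places: 7 lists had them 1488 to 1535 bp upstream and 11 lists 1174 to 1258 bp upstream, and in BxPC3 P2-a8, sgNC, sgP1 and both P1-isoform groups the replicates fell in different places. In 6 of 8 induced lists the region held another summit, 2313 to 2405 bp upstream, which no AsPC1 list had. Inside CGN, 7 of 8 induced lists had a summit 2574 to 2770 bp downstream of the start, at folds of 7.74 to 34.0, and 1 AsPC1 list had one, at 4.32. In 4 other AsPC1 lists the nearest summit lay 2239 to 2417 bp downstream, at folds of 4.57 to 5.61.

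OCLN had few peaks near its start: 1 of 14 lists had a summit there. The region held most often lay 48.2 kb upstream (chr5:69444143-69444701), nearest to MARVELD2, which encodes tricellulin, another tight junction protein. It was in 12 of 14 pan-HNF4α lists, at folds of 8.6 to 19.8, and both BxPC3 P2-a8 lists lacked it. Inside OCLN, a region 32.9 kb downstream of the start (chr5:69525335-69526050) had folds of 21.8 and 9.91 in sgNC, 7.48 and 9.78 in sgP1 and 6.83 and 6.78 in sgP2, and 8.87 in 1 of 8 induced lists. A pair of regions beyond the gene lies nearest to GTF2H2C, in a part of chromosome 5 with near-identical copies, and how reads from such copies were treated is not given in the sources used here.

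Over the 105 regions, 48 had a pan-HNF4α peak in both AsPC1 and the induced lines, 39 in the induced lines alone and 18 in AsPC1 alone. Over all 78729 regions these shares were 23.1%, 63.9% and 12.2%. There were 7 in all 14 pan-HNF4α lists and 22 in 1 list. Of all regions, 2.95% were in all 14. These 7 were the CGN region 5′ of the gene and one 36.0 kb downstream of its start, which lies nearest to TUFT1. The others were the pair at TJP3 and the regions of CLDN4, CLDN7 and CLDN15 given above.

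The first comparison asked how P1-a2 and P2-a8 differ when induced in the same line. In Panc10.05, 0 regions at the genes were in both P1-a2 lists and neither P2-a8 list, against 3.64% of 49247 regions. A further 5 of 71 were in both P2-a8 lists alone, against 10.9%, and 32 were in all 4, against 38%. The highest-ranked of the 5 lay 17.4 kb beyond TJP3, nearest to MRPL54, at folds of 17.8 and 13.2. The next was 6.76 kb beyond CLDN4, at 14.6 and 8.21, and the third 47.1 kb beyond CGN, nearest to TUFT1, at 9.76 and 6.38. With lists of equal length the counts were 4 for P1-a2 and 3 for P2-a8. No share over all regions is available at equal length, so these counts have no background.

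In BxPC3, 14 of 65 regions were in both P1-a2 lists alone, against 28.2% of 47225. None was in both P2-a8 lists alone, against 0.129%, and 12 were in all 4, against 18.3%. The P1-a2 lists were longer, with 41808 and 33737 peaks against 12681 and 14666. The highest-ranked of the 14 were the CLDN2 region past its end (24.3 and 13.7), a CLDN15 region 17.3 kb downstream of its start (20.6 and 14.5) and the OCLN region beside MARVELD2 (19.5 and 13.8). All 3 had peaks in both Panc10.05 P2-a8 lists. With lists of equal length 3 regions were in P1-a2 alone and 2 in P2-a8 alone, again with no share over all regions available. With 2 lists against 2, an exact permutation test cannot reach p = 0.05, and none was run.

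The second comparison asked what repression of either promoter left at these genes in AsPC1. Against sgP1, 7 of 62 regions were in both sgNC lists alone (background 8.97% of 26867), 0 in both sgP1 lists alone (0.409%) and 24 in all 4 (32%). The highest-ranked of the 7 were a TJP1 region 34.7 kb downstream of its first start (12.8 and 6.25), a CGN region 30.0 kb past the gene (6.8 and 5.25) and a CLDN4 region 8.43 kb upstream (8.52 and 4.37). That CGN region lies nearest to TUFT1. Against sgP2, 4 of 64 were in both sgNC lists alone (7.2% of 27043), 0 in both sgP2 lists alone (0.407%) and 27 in all 4 (34%). The same CGN region led these 4, followed by an OCLN region 28.5 kb downstream of the start (7.41 and 4.65) and the region over the CLDN7 start (6.65 and 4.87). Both comparisons share the sgNC lists, so they are not independent. The sgNC lists held 24295 and 15118 peaks, against 14038 and 11686 in sgP1 and 12345 and 15116 in sgP2. With lists of equal length, the counts were 1 for sgNC and 1 for sgP1 in the first of these comparisons, and 1 for sgNC and 0 for sgP2 in the other. At a −log10 q of at least 8, sgNC alone had 4 regions against sgP1 and 0 against sgP2. Neither setting has a share over all regions to set beside these counts.

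Between sgP1 and sgP2, 2 of 58 regions were in sgP1 alone (2.75% of 20473), 2 in sgP2 alone (4.32%) and 24 in all 4 (38%). The sgP1 pair was that OCLN region (4.87 and 5.62) and one in TJP1 (4.92 and 4.6). The sgP2 pair was the CLDN2 region past its end (6.23 and 6.99) and the CLDN4 region 8.43 kb upstream (3.96 and 6.32). At a −log10 q of at least 20 both counts were 0, and sgNC alone had 1 region against sgP1 and 0 against sgP2. These counts too have no share over all regions beside them.

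Peaks of the P1-isoform antibody were compared between sgNC and sgP2 cells. The sgNC lists were far shorter, with 697 and 260 peaks against 5200 and 3916. Peak lists do not measure how far P2 was repressed. No region at the genes was in both sgNC lists alone (0.0638% of 6274), 5 of 10 were in both sgP2 lists alone (36%), and 1, at CGN, was in all 4 (3.04%). The 5 were 3 at CLDN15, the CLDN4 start and the OCLN region beside MARVELD2. At lists of equal length, set by the 260 peaks of the shortest, the sgP2 count was 0, with no share over all regions available. Of 30 regions at the genes in both pan-HNF4α lists of sgP2, 7 (23.3%) were in both P1-isoform lists of sgP2, against 27.8% over all regions. A P1-isoform peak in any list was found at 9 of the 105 regions, against 7.76% of all regions.

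Presence of a peak was also compared between AsPC1 and the induced lines, with the pan-HNF4α lists held to a −log10 q of at least 8. The AsPC1 side pools the guides, and the induced side pools both lines and both isoforms. Cell line, CRISPRi or induced isoform, and title number change together here, so they cannot be told apart. The test took each list as a separate unit, although lists of the same line are not independent. Its p-values, here and with equal list lengths, therefore do not measure spread between cell lines. Of 97 regions at the genes, 1 differed by a two-sided Fisher's exact test with Benjamini-Hochberg adjustment over all 73022 regions. It lay 27.1 kb downstream of the CLDN4 start (chr7:73857656-73858466), nearest to TMEM270, and was in 0 of 6 AsPC1 and 8 of 8 induced lists (exact p = 0.000333, adjusted p = 0.00863). Its folds were 10.9 and 13.7 in Panc10.05 P1-a2, 16.9 and 10.0 in Panc10.05 P2-a8, 15.2 and 9.53 in BxPC3 P1-a2, and 9.1 and 8.27 in BxPC3 P2-a8. No region at the genes was called higher in AsPC1. Over all regions 3.03% were called higher in the induced lines and 0.826% in AsPC1.

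With equal list lengths this CLDN4 region was no longer called (exact test, adjusted p = 0.674), and 6 of 44 regions at the genes were called higher in AsPC1, against 8.47% of 28251 regions. A single region, past the end of CLDN3, was called higher in the induced lines, against 3.51%. Before equalising, the next regions were in 7 of 8 induced and 0 of 6 AsPC1 lists past the end of CLDN3 and 24.8 kb downstream of the CLDN4 start, or in 6 of 6 AsPC1 and 1 of 8 induced lists inside OCLN and 16.4 kb before CGN (adjusted p = 0.0592 for each, exact test). With equal lengths the CLDN3, OCLN and CGN regions passed, at adjusted exact p of 0.0389, 0.00539 and 0.0344. An OCLN region 25.2 kb downstream of its start was in 6 of 6 AsPC1 and 2 of 8 induced lists (adjusted exact p = 0.0729). At an unadjusted p of at most 0.05, 14 regions were more often in the induced lists, against 16.9% of all regions, and 6 more often in AsPC1, against 2.83%.

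**Figure D4:**
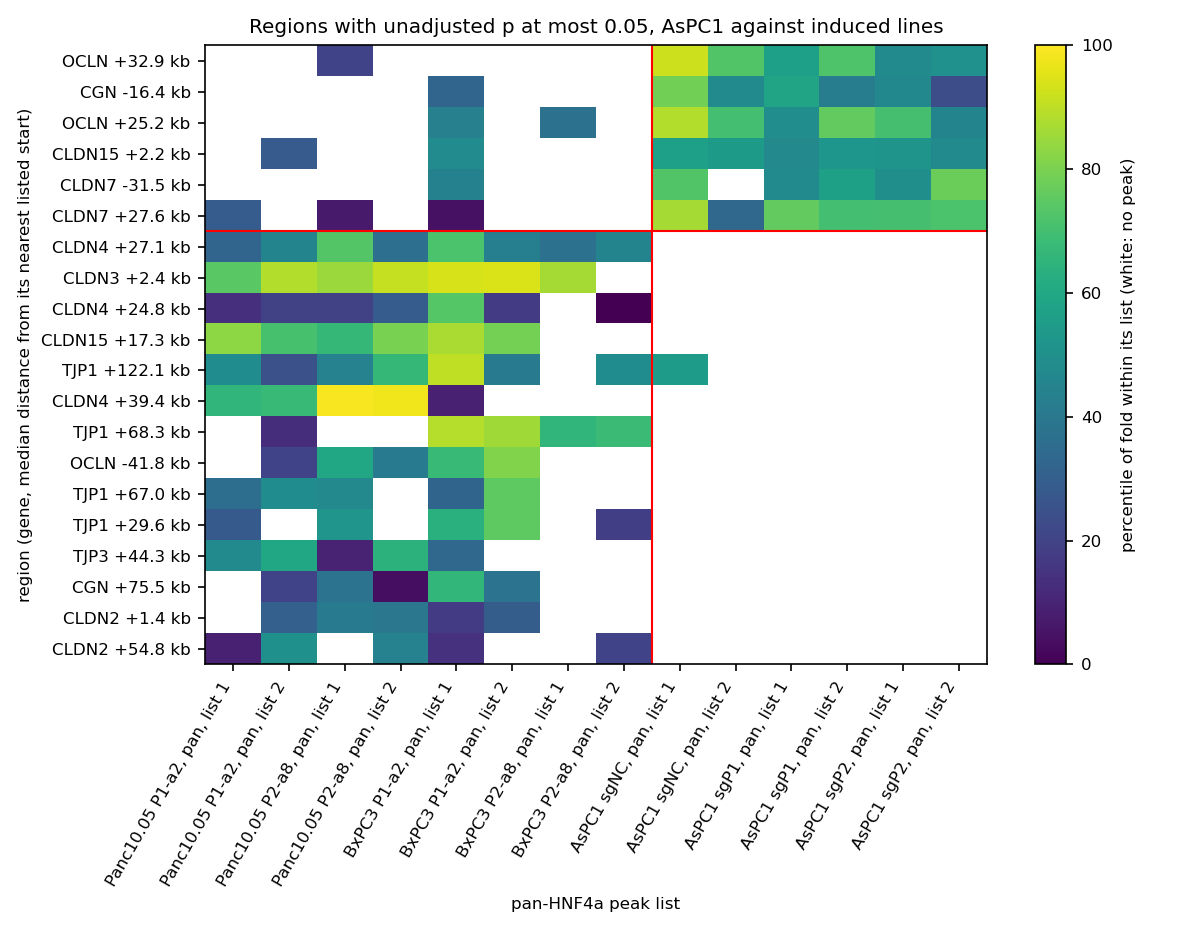
Regions at the 10 genes with an unadjusted exact p of at most 0.05 between 6 AsPC1 and 8 induced pan-HNF4α lists (rows, named by gene and distance from the nearest listed start; columns, lists at a −log10 q of at least 8). Colour is the percentile of fold enrichment within the list and white means no peak; the upper 6 rows were more often in AsPC1, the lower 14 in the induced lines, and CLDN4 +27.1 kb is in all 8 induced lists.

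Between Panc10.05 and BxPC3, the 4 lists of one line against 4 of the other allow a smallest exact p of 0.0286, and no region passed after adjustment over 68655 regions (smallest adjusted p = 0.374). At an unadjusted p of at most 0.05, 3 of 88 regions at the genes were in all 4 Panc10.05 lists and no BxPC3 list, against 5.55% of all regions more often in Panc10.05. They were the CLDN2 region 1.59 kb before its first start, the CLDN3 start and a CLDN4 region 3.04 kb upstream. A single region, beside GTF2H2C 25.4 kb past OCLN, was in all 4 BxPC3 lists and no Panc10.05 list, against 2.09%. Line, doxycycline dose and title number differ together between these lists, so they cannot be told apart. Lists of the same line again served as units, so these p-values do not measure spread between cell lines.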

How the data were processed

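HNF4α ChIP-seq of 3 pancreatic cancer cell lines gave 18 peak lists, 1 per library, and these were analysed. The 14 input libraries were not used here. The 10 genes and all lists were chosen with earlier results of these data known. The submitters' processing notes name Bowtie2 2.2.9, MACS2 2.2.7 and the builds mm10 and hg38, with no role or order. The control and read depth are not given in the sources used here. In the deposited lists the fold enrichment is a linear ratio, the p-value and q-value are −log10 values, and the score is the authors' integer form of the q-value. Deposited positions were used as the remaining columns give them. Fold enrichments are the authors' values, used to describe peaks and rank them within a list. Folds from different lists stand side by side as descriptions, and no difference between them was tested. The build was checked: in 18 of 18 lists 5.60% to 19.1% of summits lay within 1 kb of a RefSeq start (GRCh38.p14), against 1.15% to 3.93% after a shift of 100 kb.

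Groups followed the labelled line, genotype, antibody and replicate number. Peaks overlapping by at least 1 bp were merged into regions. Regions named are, for each gene, the one in most pan-HNF4α lists; up to 3 per comparison and direction by mean percentile or smallest p; and those at a gene's ends. Summit groups (gaps up to 150 bp) and counts at starts were added after seeing the data. Presence was compared by Fisher's exact test with Benjamini-Hochberg adjustment at 0.05 over all regions. Code was run with Python 3.11.15, numpy 2.4.6 and pandas 2.3.3, checked against bedtools 2.31.1 and tested on simulated data. Alternatives were windows of 10 kb, a −log10 q of at least 8 or 20, lists of equal length, reciprocal overlap of 50%, summits within 100 bp, leaving out each replicate and a replicate block.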

Additional observations from a re-analysis of the deposited data

How the results depend on the processing

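Peak lists differed in length, and a region missing from a short list may lie below its threshold. The cause of each change below was not tested. For group-specific regions, no share over all regions is available under the alternatives, so the changed counts have no background. Leaving out a replicate relaxes the rule for genes and group-specific regions, because fewer lists must hold or lack a peak. Those counts therefore lean upward by construction and say little about stability. Direction and side of the threshold held, or counts stayed within 1.5 times, for 396 of 514 recomputed values. Another 103 counts moved, 14 adjusted p-values passed the threshold anew, 1 no longer passed, and 0 reversed. Of the 396, 245 came from leaving out a replicate. Some came from calls in Panc10.05 against BxPC3, where the smallest exact p was 0.0286 before adjustment over 68655 regions. A call was all but impossible there, so unchanged values of that comparison, in this count and the next, say little about stability. For counts of genes with a peak in both lists, group-specific regions and line comparisons, with every replicate kept, 98 held and 46 moved.

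Genes with a peak in both lists: within 10 kb BxPC3 P2-a8 had 5. At a −log10 q of at least 20, sgNC had 6 with the pan-HNF4α antibody and 0 with the P1-isoform antibody, and sgP2 had 3 with the latter. At equal length sgP2 had 1 with the latter. Leaving out a replicate gave 2 for sgNC with the P1-isoform antibody, 8 to 9 in BxPC3 P2-a8 and 6 to 7 in sgP2 with the P1-isoform antibody.

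Regions of 1 isoform in Panc10.05 numbered 2 for P1-a2 at a −log10 q of at least 20, 4 for P1-a2 and 3 for P2-a8 at equal length, and 2 for P2-a8 within 10 kb. Under reciprocal overlap they were 1.5 and 9, as means over replicates, and 2 for P1-a2 by summits within 100 bp. Leaving out a replicate gave 1 to 7 for P1-a2 and 5 to 14 for P2-a8. In BxPC3, equal length gave 3 for P1-a2 and 2 for P2-a8, 10 kb gave 6 for P1-a2, and reciprocal overlap 3 for P2-a8. Leaving out a replicate gave 18 to 35 for P1-a2 and 0 to 1 for P2-a8.

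In sgNC against sgP1, sgNC alone had 4 at a −log10 q of at least 8, 1 at 20 and 1 at equal length, and sgP1 alone had 1 at equal length and 1 by reciprocal overlap. Leaving out a replicate gave 9 to 18 and 0 to 2. In sgNC against sgP2, sgNC alone had 0 at 8, 0 at 20 and 1 at equal length, and sgP2 alone had 1 by reciprocal overlap and 1 by summits. Leaving out a replicate gave 4 to 19 and 0 to 4. In sgP1 against sgP2 there were 1 and 4 at 8, and 0 and 0 at 20. Leaving out a replicate gave 2 to 8 and 4 to 11. With the P1-isoform antibody, sgP2 alone had 2 at 20, 0 at equal length and 1 within 10 kb, and 5 to 7 without a replicate.

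For AsPC1 against the induced lines, 1 region was called higher in AsPC1 with lists as deposited and 6 at equal length, and within 10 kb 0 were called higher in the induced lines. At an unadjusted p of at most 0.05, a count added after seeing the data, AsPC1 had 2 at a −log10 q of at least 20, 11 at equal length and 3 within 10 kb, and the induced lines 1 at equal length and 6 within 10 kb. Leaving out a list gave 0 to 3 called in AsPC1 and 1 to 5 in the induced lines, and unadjusted counts of 5 to 7 and 5 to 14. For Panc10.05 against BxPC3, unadjusted counts at equal length were 1 and 2, and 0 for BxPC3 within 10 kb. Without a list they were 3 to 7 for Panc10.05 and 1 to 2 for BxPC3.

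With the replicate block, the smallest exact p over all regions in Panc10.05 against BxPC3 was 0.0556, so the counts at an unadjusted p of at most 0.05 were 0 and 0 by construction and say nothing about stability. In AsPC1 against the induced lines, 0 regions were called higher in AsPC1 and 1 in the induced lines under the block. Labels do not say that a number marks a shared batch. The correlation of same-numbered lists within the 6 comparisons of 2 groups was between -0.0674 and 0.068, so the numbers give no hint of pairing.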
